A study of Mus musculus with 22 samples.

Results

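Aldh1l1, the cytosolic formyltetrahydrofolate dehydrogenase, was examined with 6 other enzymes of the folate one-carbon cycle in sorted mouse skin fibroblasts. The 7 genes (Aldh1l1, Aldh1l2, Shmt1, Shmt2, Mthfd1, Mthfd1l and Mthfd2) were found by matching the Ensembl identifiers of a table of 55414 genes to mouse symbols. Aldh1l1 was chosen by its counts, which differed between the arms on every day in an earlier look at these data, so its levels are given as a description without a p-value. The other 6 were taken as enzymes of the same pathway. They too were chosen with earlier results of these data known, so their p-values and counts may lean towards a difference.

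The libraries came from the back skin of mice in a study of skin expansion, at 1, 2 and 4 days. Every mouse had an incision near the tail and a tunnel made under the skin towards the neck, so both arms carry the response to the operation. In EXP mice a swelling hydrogel was stitched in place at the end of the tunnel, and in CTRL mice nothing was. Day 1 had 4 libraries of the CTRL arm and 5 of the EXP arm, day 2 had 3 of each, and day 4 had 4 CTRL and 3 EXP. Fibroblasts were sorted as live cells without CD31, CD45, CD117 or EpCAM and with CD34 and PDGFRα. The labels number the libraries of a group but do not tie each to a mouse, nor give strain, sex or age. P-values therefore measure the spread between libraries, which may be technical in part.

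Folate carries single carbon atoms between metabolites. In mitochondria SHMT2 takes a carbon from serine, MTHFD2 oxidises it, and MTHFD1L releases it as formate. In the cytosol MTHFD1 attaches formate to tetrahydrofolate for the making of purines and thymidylate, and SHMT1 can run the serine reaction in either direction. ALDH1L1 in the cytosol and its paralog ALDH1L2 in mitochondria oxidise the carbon of formyltetrahydrofolate to carbon dioxide, which yields NADPH and frees tetrahydrofolate. ALDH1L1 is known as an abundant liver enzyme and as a marker of astrocytes.

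The start-site sequences of Aldh1l1, Mthfd1 and Mthfd1l are shown because these are the enzymes whose EXP libraries all lay above all CTRL libraries on each day. They are RefSeq sequences of build GRCm38.p6, from 250 bases before the annotated start to 50 bases into the transcript, written 5′ to 3′ on the gene's strand. Capitals mark the CCAAT box, which reads ATTGG where it lies on the other strand. The windows are chr6:90550543-90550842 for Aldh1l1, chr12:76254982-76255281 for Mthfd1 and chr10:3972825-3973124 for Mthfd1l, each on the plus strand.
Aldh1l1: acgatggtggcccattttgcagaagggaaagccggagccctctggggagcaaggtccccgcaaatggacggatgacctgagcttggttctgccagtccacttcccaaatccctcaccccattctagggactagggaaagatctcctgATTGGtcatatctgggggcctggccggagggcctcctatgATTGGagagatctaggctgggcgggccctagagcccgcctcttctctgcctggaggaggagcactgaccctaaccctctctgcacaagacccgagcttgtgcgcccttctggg
Mthfd1: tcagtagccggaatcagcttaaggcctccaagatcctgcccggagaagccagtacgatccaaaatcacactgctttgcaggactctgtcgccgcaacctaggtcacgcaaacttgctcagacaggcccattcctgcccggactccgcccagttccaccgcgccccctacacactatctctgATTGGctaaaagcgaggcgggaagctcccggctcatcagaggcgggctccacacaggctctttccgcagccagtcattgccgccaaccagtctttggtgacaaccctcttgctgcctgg
Mthfd1l: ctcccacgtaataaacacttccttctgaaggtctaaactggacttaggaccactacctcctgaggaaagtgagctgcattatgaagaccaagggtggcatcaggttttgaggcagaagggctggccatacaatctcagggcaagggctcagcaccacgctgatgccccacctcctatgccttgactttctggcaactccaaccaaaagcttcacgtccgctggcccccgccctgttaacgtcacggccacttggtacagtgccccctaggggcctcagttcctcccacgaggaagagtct

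RefSeq windows were at hand for 6 of the 7 enzymes, all except Aldh1l2. In the window of Aldh1l1 the CCAAT box occurred at 2 places, with its leftmost base at -103 and -63 from the start, and in that of Mthfd1 it occurred at -69. Mthfd1l had none on either strand. Mthfd2 had 3 matches, Shmt1 had 1 and Shmt2 had 0, and 37.4% of 32841 mouse windows of the same length held at least 1. The GC box GGGCGG occurred in the windows of Aldh1l1, Mthfd1, Mthfd1l and Shmt1, against 35.7% of all windows. The C/EBP-ATF element TGATGNAA (3.97% of all windows), the E-box CACGTG (7.15%), the AP-1 site TGACTCA (5.2%) and the sterol element TCACNCCAC (1.24%) were found in none of the 6 windows on either strand. These are letters in a window, and no binding was measured.

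Levels are given in CPM, counts scaled to a common library size with TMM factors, which set the bulk of genes equal between libraries. Fold changes are log2 values of EXP over CTRL from an edgeR quasi-likelihood fit to 17554 genes in all 22 libraries, and a gene was called at a Benjamini-Hochberg adjusted p under 0.05. A library held 21461294 to 30210204 counts in all. The least level read as detected, 3 counts, equals 0.0993 to 0.140 CPM on library totals without TMM factors. It covers counting error only. Transcripts of the mitochondrial genome took 0.617% to 1.10% of counts in CTRL and 0.948% to 1.83% in EXP libraries. A set of 191 genes that follow Rnf10 split the libraries apart from the groups, with 15 on the low side and 7 on the high side, which were 5 of day 1 (3 CTRL, 2 EXP) and 2 CTRL of day 4.

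The fibroblast markers Pdgfra, Cd34, Col1a1, Dpt and Lum were detected in every group and summed to between 74237 and 146318 CPM in CTRL and between 19939 and 91850 CPM in EXP libraries. Such a sum is weighted to the most abundant marker, and the 5 did not go 1 way. On days 1 and 2, 1 was called higher and 2 lower in EXP, and on day 4, 1 higher and 1 lower. Of all genes, 28.5%, 13.5% and 22.6% were called in either direction on days 1, 2 and 4. Immune markers (Ptprc, Lyz2, Cd68, Itgam, Cd3e) summed to 2.07 to 12.8 CPM in CTRL and 13.4 to 34.1 CPM in EXP libraries. Keratinocyte markers summed to at most 37.0 CPM, those of pericytes and smooth muscle to at most 15.0, of endothelium to 8.12, of melanocytes to 3.72 and of skeletal muscle to 2.08. Endothelial sums on day 1 were 1.04 to 4.15 CPM in CTRL and 0.487 to 2.51 CPM in EXP libraries. They were 0 to 0.517 CPM against 0.674 to 2.17 CPM on day 2, and 0.169 to 2.19 CPM against 2.27 to 8.12 CPM on day 4. Their part in the enzyme levels was not tested. In bulk RNA, fewer cells of a type and less RNA per cell cannot be told apart, which holds for each level below.

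Aldh1l1 (ENSMUSG00000030088) was the enzyme with the widest gap between the arms, low in CTRL fibroblasts and high in EXP fibroblasts on each day. On day 1 the 4 CTRL libraries held 2.75, 2.11, 2.85 and 3.15 CPM and the 5 EXP libraries held 22.3, 17.0, 26.5, 16.3 and 21.7 CPM. On day 2 the CTRL libraries held 0.303, 0.930 and 0.402 CPM and the EXP libraries 38.5, 23.8 and 28.2 CPM. The day 2 CTRL levels rest on 6, 18 and 9 counts, while the EXP libraries of that day had 1173, 601 and 739 counts. On day 4 the CTRL libraries held 2.46, 1.01, 0.674 and 1.91 CPM and the EXP libraries 29.4, 26.9 and 17.2 CPM. The arms overlapped on none of the days. In log2 units EXP exceeded CTRL by 2.93 (SE 0.32) on day 1, by 5.79 (SE 0.46) on day 2 and by 4.02 (SE 0.36) on day 4. The day 2 value rose to 6.39 without the CTRL library of 0.930 CPM.

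Ordered by mean level, Aldh1l1 stood at 30.2 ± 7.55 CPM (SD, n = 3) in day 2 EXP, 24.5 ± 6.43 (SD, n = 3) in day 4 EXP and 20.8 ± 4.19 (SD, n = 5) in day 1 EXP. Below these came day 1 CTRL at 2.71 ± 0.439 CPM (SD, n = 4), day 4 CTRL at 1.52 ± 0.821 (SD, n = 4) and day 2 CTRL at 0.545 ± 0.337 (SD, n = 3). The EXP groups of the 3 days overlapped one another in their libraries. Day 4 CTRL overlapped with each of the other CTRL groups, whereas the CTRL libraries of days 1 and 2 did not overlap. The size of the gap on day 2 thus goes with the lowest CTRL level as well as the highest EXP level. Day and any processing step that followed the day cannot be told apart.

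The immune marker sum was also higher in EXP than in CTRL libraries of each day, and its part in the Aldh1l1 levels was not tested. Adipocyte markers (Adipoq, Plin1, Cidec, Lep) summed on day 1 to at most 0.0783 CPM in EXP and at most 4.96 CPM in CTRL libraries. On day 2, when the Aldh1l1 gap was widest, these markers summed to 1.95 to 27.0 CPM in EXP and at most 0.402 CPM in CTRL libraries, and on day 4 to 0.693 to 124 CPM in EXP and at most 0.580 CPM in CTRL libraries. The part of adipocytes in the Aldh1l1 levels was not tested on any day. Glial markers (Sox10, S100b, Gfap) summed on day 1 to 0.337 to 2.38 CPM in CTRL and 0.0649 to 0.509 CPM in EXP libraries. The day 2 sums were 0 to 0.313 CPM in CTRL against 0.230 to 1.41 CPM in EXP libraries. Those of day 4 were 0.253 to 1.18 CPM against 0.986 to 2.99 CPM. Sox10 and Gfap were at 0 in all EXP libraries of days 1 and 2 and all CTRL libraries of day 2, and Sox10 also in day 4 EXP. The part of glial cells in the Aldh1l1 levels was not tested. Of the 4516 exonic bases annotated for Aldh1l1, 604 are shared with Gm15756, an antisense gene, and Gm45901, and both had 0 counts in all 22 libraries.

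**Figure D1:**
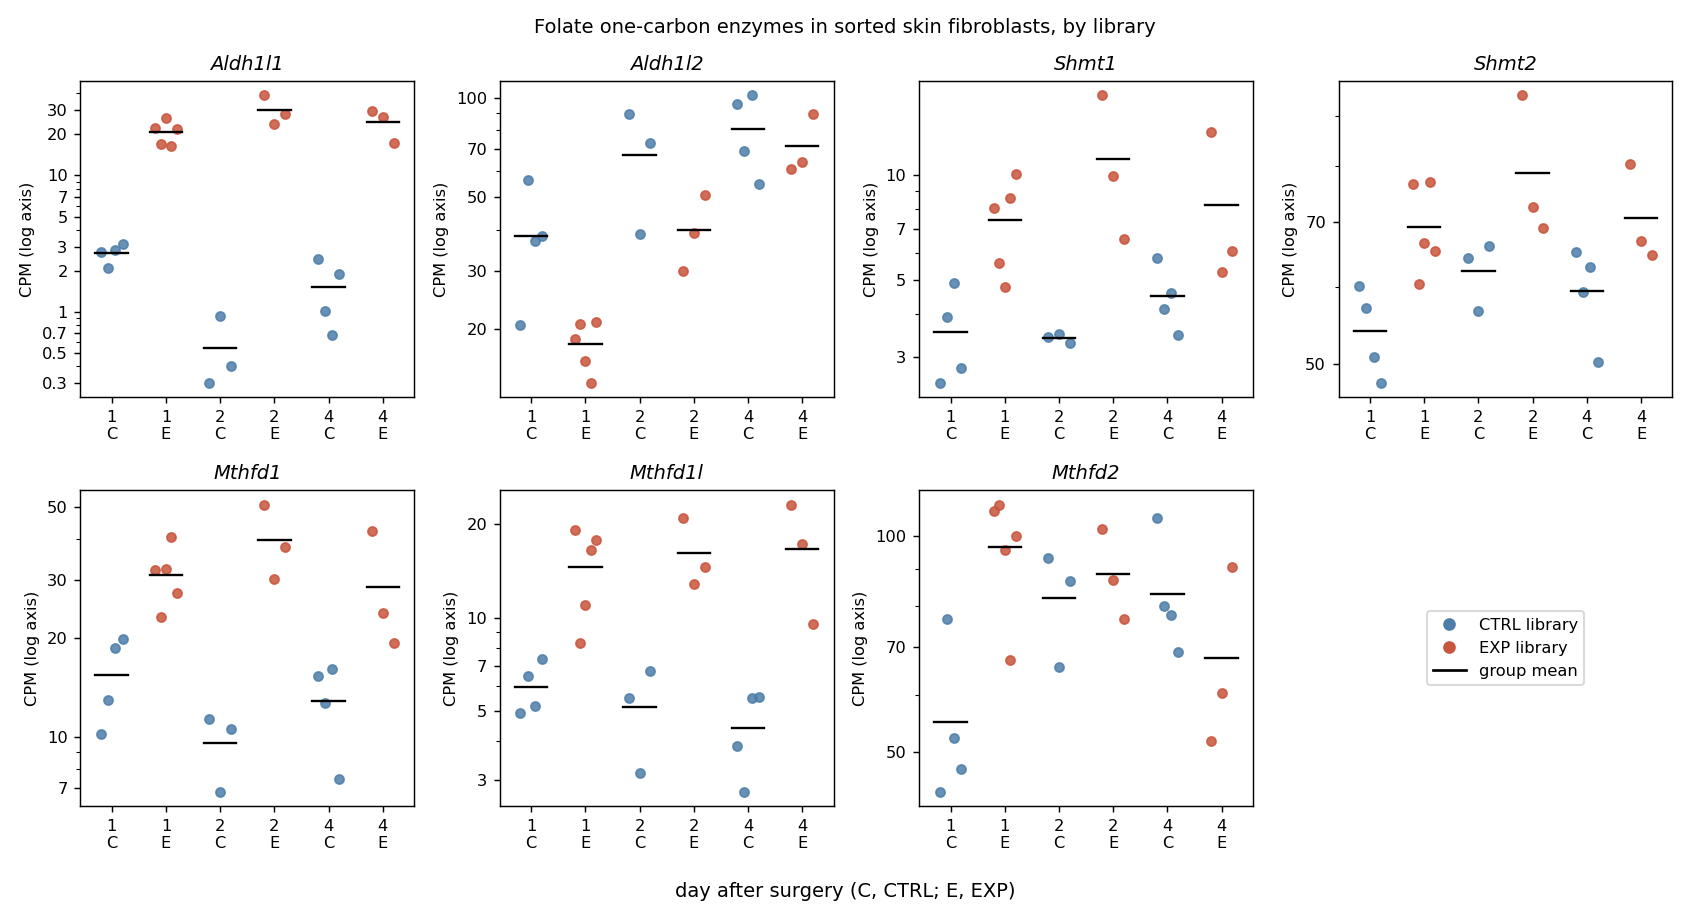
CPM (log axis) of the 7 enzymes in each library, by day and arm (C, CTRL in blue; E, EXP in red), with a black line at each group mean. The Aldh1l1 panel shows EXP libraries from 16.3 to 38.5 CPM above CTRL libraries from 0.303 to 3.15 CPM.

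Among the other 6 enzymes, the day 1 comparison called 5 higher and 1 lower in EXP, that of day 2 called 3 higher and that of day 4 called 2 higher. Over all genes, 28.5% were called in either direction on day 1, 13.5% on day 2 and 22.6% on day 4, with 13.6%, 7.85% and 13.6% called higher and 14.9%, 5.62% and 8.96% called lower. The median log2 fold change of the 6 was 0.91, 0.99 and 0.56 on days 1, 2 and 4, beside 0.01, 0.03 and 0.06 over all genes. As the 6 were chosen with earlier results known, these shares and medians are set beside them as a description. The enzymes called higher on all 3 days were Mthfd1 and Mthfd1l, and the share of all genes called so on all 3 days was not computed.

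Aldh1l2 (ENSMUSG00000020256), the mitochondrial paralog of Aldh1l1, was the enzyme called lower on day 1. Its day 1 CTRL libraries held 20.6, 56.6, 37.1 and 38.3 CPM and the EXP libraries 18.6, 20.8, 16.1, 13.8 and 21.0 CPM. The lowest CTRL library lay inside the EXP range, and the other 3 lay above it. The log2 fold change was -1.08 on day 1 (SE 0.27, edgeR adjusted p 0.00479). On day 2 CTRL held 89.6, 38.7 and 73.2 CPM and EXP 29.9, 39.2 and 50.9 CPM, a difference of -0.75 (SE 0.33, edgeR adjusted p 0.136). On day 4 CTRL held 95.8, 68.9, 101.7 and 55.0 CPM and EXP 61.1, 64.0 and 89.3 CPM, a difference of -0.17 (SE 0.30, edgeR adjusted p 0.728). The arms overlapped on all 3 days.

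Within EXP fibroblasts Aldh1l2 rose over the days, from a mean of 18.0 ± 3.11 CPM (SD, n = 5) on day 1 to 40.0 ± 10.5 (SD, n = 3) on day 2 and 71.5 ± 15.5 (SD, n = 3) on day 4. The joint change over days in EXP had an edgeR adjusted p of 3.91e-04, with log2 differences from day 1 of 1.15 (SE 0.29, edgeR adjusted p 0.0340) on day 2 and 1.99 (SE 0.29, edgeR adjusted p 1.08e-04) on day 4. It was the 1 of the 6 enzymes called in that contrast, in which 14.1% of all genes were called. CTRL means of Aldh1l2 were 38.2, 67.2 and 80.4 CPM on days 1, 2 and 4, a joint change with an edgeR adjusted p of 0.157. Exons of D10Wsu102e, a gene on the other strand with 656 to 2715 counts per library, share 1056 of the 7503 exonic bases of Aldh1l2. How far this affects the Aldh1l2 counts cannot be told, as strandedness and the counting tool are not given.

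Per kilobase of exon, the ratio of Aldh1l1 to Aldh1l2 on day 1 was 0.137 ± 0.0655 (SD, n = 4) in CTRL against 1.96 ± 0.508 (SD, n = 5) in EXP libraries. The day 2 ratio was 0.0182 ± 0.0188 (SD, n = 3) in CTRL against 1.36 ± 0.680 (SD, n = 3) in EXP libraries, and the day 4 ratio 0.0340 ± 0.0205 (SD, n = 4) against 0.606 ± 0.253 (SD, n = 3). No EXP library of any day fell inside the CTRL range. The 5 EXP libraries of day 1 all had more Aldh1l1 than Aldh1l2 by this measure, and the 3 of day 4 had less. These ratios carry the choice of Aldh1l1 and the uncertainty of the Aldh1l2 counts, and are a description.

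**Figure D2:**
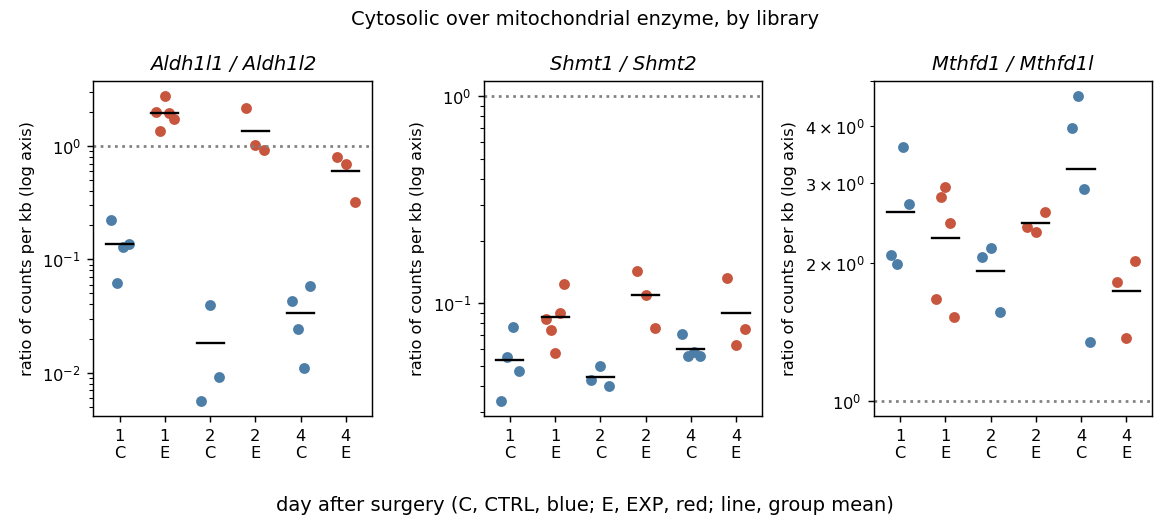
Ratio of counts per kilobase (log axis) of each cytosolic enzyme to a mitochondrial partner in every library, by day and arm, with a black line at each group mean and a dotted line at a ratio of 1. Aldh1l1 over Aldh1l2 separates the arms on each day, while Shmt1 over Shmt2 stays below 0.144 in all libraries.

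The serine hydroxymethyltransferases differed in level and in response. Shmt2 (ENSMUSG00000025403), the mitochondrial enzyme, held 60.2, 57.2, 51.0 and 47.9 CPM in day 1 CTRL and 76.7, 60.5, 66.7, 77.1 and 65.4 CPM in day 1 EXP libraries. Every EXP library lay above every CTRL library, but by a narrow gap, and the log2 fold change was 0.36 (SE 0.13, edgeR adjusted p 0.0452). Omitting 1 day 1 library at a time lost that call for 6 of the 9 (CTRL replicates 2, 3 and 4 and EXP replicates 1, 3 and 4), with an adjusted p up to 0.125. On day 2 CTRL held 64.4, 56.7 and 66.2 CPM and EXP 94.5, 72.6 and 69.1 CPM, with no overlap and a log2 fold change of 0.34 (SE 0.16, edgeR adjusted p 0.171). On day 4 it was 0.25 (SE 0.15, edgeR adjusted p 0.233), with 50.3 to 65.3 CPM in CTRL and 64.8 to 80.3 CPM in EXP.

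Shmt1 (ENSMUSG00000020534), the cytosolic enzyme, was scarcer. On day 1 its CTRL libraries held 2.54, 3.92, 4.90 and 2.81 CPM and its EXP libraries 8.07, 5.60, 4.77, 8.61 and 10.1 CPM, and only the lowest EXP library reached into the CTRL range. The log2 fold change was 1.07 (SE 0.32, edgeR adjusted p 0.0160), and the call was lost without CTRL replicate 1 (edgeR adjusted p 0.0575) and just lost without CTRL replicate 4. On day 2 CTRL held 3.44, 3.51 and 3.31 CPM and EXP 17.0, 9.96 and 6.56 CPM, with no overlap and a log2 fold change of 1.71 (SE 0.39, edgeR adjusted p 0.00687). Without EXP replicate 1, the highest, the day 2 value was 1.27 with an edgeR adjusted p of 0.0709. On day 4 the difference of 0.87 (SE 0.35, edgeR adjusted p 0.0785) did not pass, with 5.80, 4.13, 4.59 and 3.49 CPM in CTRL and 13.3, 5.27 and 6.05 CPM in EXP. That value was 0.30 without EXP replicate 1 and was called, at 1.05 with an adjusted p of 0.0477, without EXP replicate 3.

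Per kilobase, the ratio of Shmt1 to Shmt2 on day 1 was 0.0531 ± 0.0181 (SD, n = 4) in CTRL against 0.0857 ± 0.0245 (SD, n = 5) in EXP libraries. The day 2 ratio was 0.0441 ± 0.00495 (SD, n = 3) against 0.110 ± 0.0338 (SD, n = 3), without overlap of the arms. The day 4 ratio was 0.0602 ± 0.00741 (SD, n = 4) against 0.0902 ± 0.0372 (SD, n = 3). Shmt2 transcripts thus outnumbered those of Shmt1 in every library of both arms.

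Mthfd1 (ENSMUSG00000021048), the cytosolic enzyme that loads formate onto tetrahydrofolate, rose in EXP on each day. The day 1 libraries held 10.2, 12.9, 18.6 and 19.8 CPM in CTRL and 32.1, 23.2, 32.3, 40.5 and 27.3 CPM in EXP. The day 2 libraries held 11.4, 6.82 and 10.6 CPM in CTRL and 50.8, 30.1 and 37.8 CPM in EXP. The arms were separate on both days, with log2 fold changes of 1.01 (SE 0.27, edgeR adjusted p 0.00842) and 2.04 (SE 0.34, edgeR adjusted p 7.83e-04). On day 4 CTRL held 15.3, 12.7, 16.1 and 7.44 CPM and EXP 42.3, 23.8 and 19.4 CPM, a log2 fold change of 1.15 (SE 0.30, edgeR adjusted p 0.0115). Without EXP replicate 1, the highest, the day 4 value was 0.72 with an edgeR adjusted p of 0.143.

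Mthfd1l (ENSMUSG00000040675), which releases formate from mitochondria, also rose on each day. Its libraries held 4.91, 6.49, 5.19 and 7.34 CPM in day 1 CTRL and 19.1, 8.30, 11.0, 16.5 and 17.9 CPM in day 1 EXP. They held 5.51, 3.15 and 6.75 CPM in day 2 CTRL and 21.1, 12.8 and 14.5 CPM in day 2 EXP. The arms did not overlap, and the log2 fold changes were 1.28 (SE 0.31, edgeR adjusted p 0.00364) and 1.65 (SE 0.37, edgeR adjusted p 0.00621). On day 4 CTRL held 3.87, 2.74, 5.52 and 5.53 CPM and EXP 23.2, 17.3 and 9.55 CPM, a log2 fold change of 1.92 (SE 0.34, edgeR adjusted p 0.00101). These calls held in each fit that left out 1 library of the day.

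Separation of all EXP from all CTRL libraries on all 3 days was seen for Aldh1l1, Mthfd1 and Mthfd1l. EXP libraries lay wholly above CTRL libraries for 11.4% of all genes on day 1, 21.2% on day 2 and 15% on day 4. These are shares of single days, and the share of genes separated on all 3 days was not computed. The ratio of Mthfd1 to Mthfd1l per kilobase on day 1 was 2.59 ± 0.738 (SD, n = 4) in CTRL against 2.28 ± 0.642 (SD, n = 5) in EXP libraries, with overlap of the arms. The day 2 ratio was 1.93 ± 0.318 (SD, n = 3) against 2.45 ± 0.131 (SD, n = 3), and the day 4 ratio 3.21 ± 1.43 (SD, n = 4) against 1.74 ± 0.331 (SD, n = 3).

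Mthfd2 (ENSMUSG00000005667), the mitochondrial dehydrogenase and cyclohydrolase, was called higher in EXP on day 1. CTRL libraries of day 1 held 43.9, 76.5, 52.2 and 47.3 CPM and EXP libraries 108.5, 110.7, 95.8, 67.1 and 100.1 CPM. The highest CTRL library lay above the lowest EXP library, and the log2 fold change was 0.81 (SE 0.20, edgeR adjusted p 0.00505). On day 2 the arms held much the same range, 65.7 to 93.3 CPM in CTRL and 76.6 to 102.4 CPM in EXP, with a difference of 0.11 (SE 0.24, edgeR adjusted p 0.802). On day 4 CTRL held 105.9, 79.9, 77.6 and 68.9 CPM and EXP 51.8, 60.4 and 90.6 CPM, a difference of -0.30 (SE 0.23, edgeR adjusted p 0.363).

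The question whether the EXP effect depended on the day was tested jointly over the 3 days. By edgeR 0 of the 6 enzymes passed, against 8.64% of all genes, while 1 of the 6 had an unadjusted p under 0.05 and limma voom called 1. That enzyme was Mthfd2, with an edgeR adjusted p of 0.0542. Its effect on day 4 was lower than on day 1 by a log2 difference of -1.11 (SE 0.31, edgeR adjusted p 0.0216), a pairwise contrast looked at after the joint value was seen. Within CTRL, edgeR called 0 of the 6 over the days, against 0.302% of all genes, with 2 at an unadjusted p under 0.05 (Aldh1l2 and Mthfd2) and 1 called by limma voom (Aldh1l2).

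**Figure D3:**
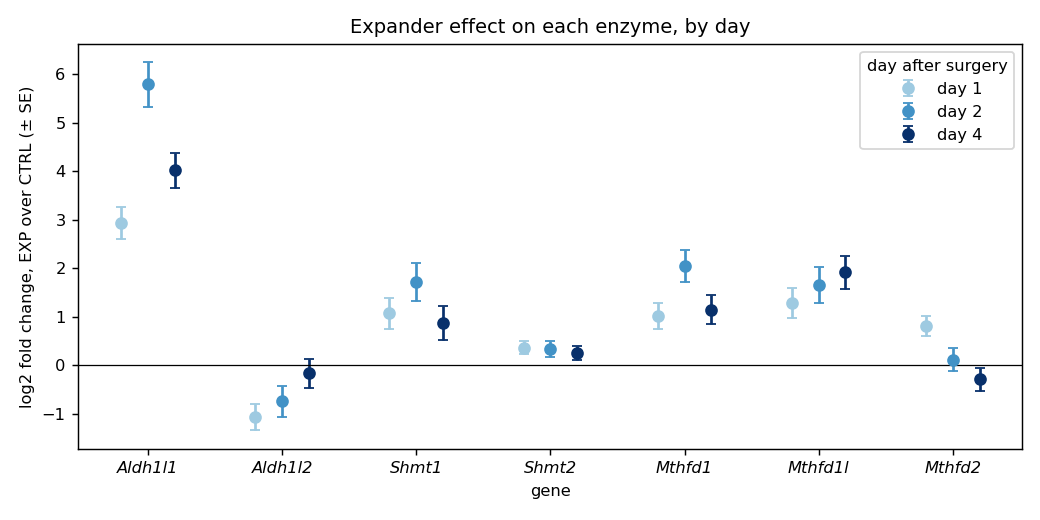
Log2 fold change of EXP over CTRL (points, with bars of 1 SE) for each enzyme on days 1, 2 and 4. Aldh1l1 stands between 2.93 and 5.79, Mthfd1 and Mthfd1l stay at 1.01 or more, and Mthfd2 goes from 0.81 on day 1 to -0.30 on day 4.

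Compared per kilobase of exon, Mthfd2 and Shmt2 were the most abundant of the 7 in every group. Mthfd2 ranged from 15.8 CPM per kilobase in day 1 CTRL to 27.7 in day 1 EXP, and Shmt2 from 17.4 in day 1 CTRL to 25.3 in day 2 EXP. Aldh1l1 was the lowest of the 7 in each CTRL group, at 0.601, 0.121 and 0.336 CPM per kilobase on days 1, 2 and 4. In EXP it stood 4th on days 1 and 2 and 5th on day 4, at 4.60, 6.69 and 5.43 CPM per kilobase, and Shmt1 took the lowest place. Aldh1l2 was 3rd in each CTRL group and 6th in day 1 EXP.

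Across the 22 libraries Aldh1l1 had a Pearson r of 0.85 with Mthfd1, 0.84 with Mthfd1l and 0.75 with Shmt1 on log2 CPM, values that carry the difference between the arms. With group means removed the same correlations were -0.06, 0.03 and 0.15. Aldh1l1 and Aldh1l2 had r of -0.51 before and after that step. Mthfd1, Shmt1 and Shmt2 kept r of 0.55 to 0.60 with one another within groups, and Aldh1l2 and Mthfd2 had r of 0.66 within groups against -0.01 overall. Libraries share depth and composition, so these are descriptions of 22 libraries.

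The genes most like Aldh1l1 across all libraries were Scarb1, a lipoprotein receptor (r = 0.963), Timp1, an inhibitor of matrix metalloproteinases (0.954), the kinase Nek6 (0.946) and the cytokine Il33 (0.943). With group means removed their r was 0.369, 0.499, 0.490 and 0.0598. By rank correlation or within groups, 0 of these 4 were among the 5 most alike. For Mthfd1l the closest gene was Pkm, the muscle-type pyruvate kinase (r = 0.965, and 0.846 within groups), followed by the processed pseudogene Gm6560. Mthfd1 was closest to Vars and Ch25h, Aldh1l2 to Erlec1 and Arsb, Shmt1 to Hnrnpm and Dnmt1, and Shmt2 to Hnrnpm and Fasn.

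Mthfd2 was closest to Trib3, a pseudokinase gene known as a target of the stress factor ATF4, with r of 0.898 across libraries and 0.897 within groups. The mean of Trib3 on day 1 was 7.85 ± 3.36 CPM (SD, n = 4) in CTRL against 19.1 ± 5.21 (SD, n = 5) in EXP libraries, and on day 4 it was 12.4 ± 1.94 (SD, n = 4) against 6.93 ± 2.96 (SD, n = 3). The day 1 CTRL library with the most Mthfd2, 76.5 CPM, also had the most Trib3 of its group, 12.8 CPM. The day 1 EXP library with the least Mthfd2, 67.1 CPM, had the least Trib3, 11.2 CPM. The next gene in likeness to Mthfd2 was the processed pseudogene Gm14639, at r of 0.851. Whether ATF4 had a part in the Mthfd2 levels was not tested.

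**Figure D4:**
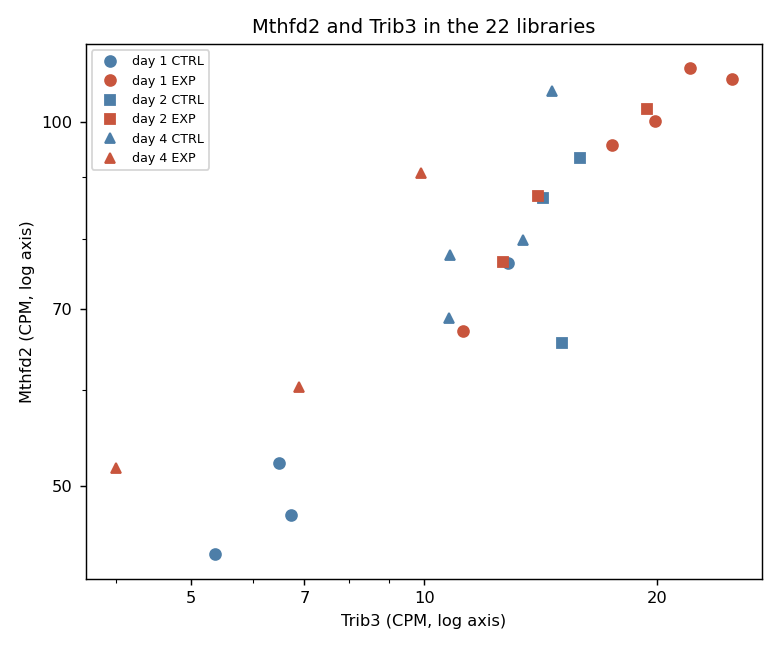
Mthfd2 against Trib3 in CPM (both log axes) for the 22 libraries, with colour for the arm and marker shape for the day. Libraries rise along a common line, with 3 CTRL libraries of day 1 and 2 EXP libraries of day 4 at its lower end.

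The genes around the enzymes were read from lists written by hand. Of 22 other folate genes 19 had enough counts to test, and Folr1, Folr2 and Dmgdh did not. On day 1, edgeR called 0 of the 19 higher and 2 lower in EXP, where 2 had an unadjusted p under 0.05 in the higher direction and DESeq2 called 1 higher. On day 2 there were 3 higher and on day 4 there were 7, a count that fell to 3 without EXP replicate 1 of that day. Their median log2 fold changes were 0.06, 0.49 and 0.37.

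In the group for folate transport and retention, 5 of 7 genes were tested. Ggh, which trims the glutamate tail that holds folate in cells, fell on day 1 (log2 fold change -1.20, SE 0.31, edgeR adjusted p 0.00592), from 53.3 ± 12.1 CPM (SD, n = 4) to 23.3 ± 11.9 (SD, n = 5). The transporter Slc46a1 also fell on day 1 (-0.84, SE 0.21, edgeR adjusted p 0.00440). Fpgs, which adds the glutamate tail, was called higher on day 4 (0.70, SE 0.21, edgeR adjusted p 0.0228), a call lost in 5 of the 7 fits without 1 library of the day. Of 3 genes for interconversion (Mthfs, Mthfd2l and Ftcd), edgeR and DESeq2 called 0 on each day. An unadjusted p under 0.05 was reached by 0 of them on days 1 and 2 and by 1 on day 4.

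Of 6 genes whose products use one-carbon units, 0 were called on day 1, none at an unadjusted p under 0.05 by edgeR and 0 by DESeq2. On day 2 thymidylate synthase (Tyms, 1.28, SE 0.40, edgeR adjusted p 0.0363) and the purine enzyme Gart (1.24, SE 0.27, edgeR adjusted p 0.00440) rose. On day 4 Tyms, Gart and Atic rose, with log2 fold changes of 1.11, 0.94 and 1.26. Leaving out EXP replicate 1 brought the day 4 count of this group from 3 to 0, and leaving out any of 4 libraries brought the day 2 count from 2 to 1 by the loss of Tyms. Of 6 genes for purine synthesis, which share Gart and Atic with that group, 1 was called higher on day 1 (Ppat, 1.55), 4 on day 2 and 5 on day 4, led on day 2 by Pfas at 2.41. The day 4 count fell to 0 without EXP replicate 1 and to 3 without CTRL replicate 4, and Pfas was lost on day 4 in 4 of 7 such fits.

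Of 5 tested genes of the other mitochondrial carbon sources, edgeR called 0 on day 1 (1 at an unadjusted p under 0.05, and 1 by DESeq2), 1 on day 2 and 3 on day 4, all higher. Gldc, the glycine decarboxylase of the glycine cleavage system, averaged 0.832 ± 0.653 CPM (SD, n = 3) in CTRL against 9.02 ± 4.03 (SD, n = 3) in EXP libraries of day 2. The day 4 averages were 0.854 ± 0.451 CPM (SD, n = 4) against 24.2 ± 12.0 (SD, n = 3). That day's difference was 4.83 on the log2 scale (SE 0.73, edgeR adjusted p 3.61e-04). From day 1 to day 2, Gldc changed by -2.81 (SE 0.76, edgeR adjusted p 0.109) in CTRL and by 0.15 (SE 0.61, edgeR adjusted p 0.937) in EXP. Sardh, which takes a carbon from sarcosine, rose on day 4 (2.81, SE 0.59, edgeR adjusted p 0.00325), as did Gcsh of the glycine cleavage system (0.86, SE 0.21, edgeR adjusted p 0.00832), whose call was lost without EXP replicate 2.

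Serine, the main source of the carbon, is made by Phgdh, Psat1 and Psph. Psat1 and Psph were called higher on each day, with log2 fold changes of 1.53, 0.94 and 1.18 for Psat1 and 1.17, 1.23 and 0.90 for Psph, and Phgdh passed on none. The day 2 call of Psat1 was lost in 4 of 6 fits without 1 library. Of 9 genes listed as ATF4 and its targets, 6 were higher on day 1, 2 were higher and 1 lower on day 2, and 0 were called on day 4 by edgeR, with 5 at an unadjusted p under 0.05 and 2 called by DESeq2. That 0 rests on single libraries, since 5 were called lower without EXP replicate 3 of day 4 and 1 without CTRL replicate 3. Chac1, a glutathione-degrading enzyme, had a log2 fold change of 2.38 (SE 0.45, edgeR adjusted p 7.18e-04) on day 1. On day 2 the cystine transporter Slc7a11 was higher (2.10) and Nupr1 lower (-1.70), and both calls were lost without EXP replicate 1. The Nupr1 call was also lost without CTRL replicate 1 (edgeR adjusted p 0.0619) and with no filter on low counts (edgeR adjusted p 0.0521). Mthfd2 and Aldh1l2 are themselves known as ATF4 targets, and a part of ATF4 in the levels of any enzyme was not tested.

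**Figure D5:**
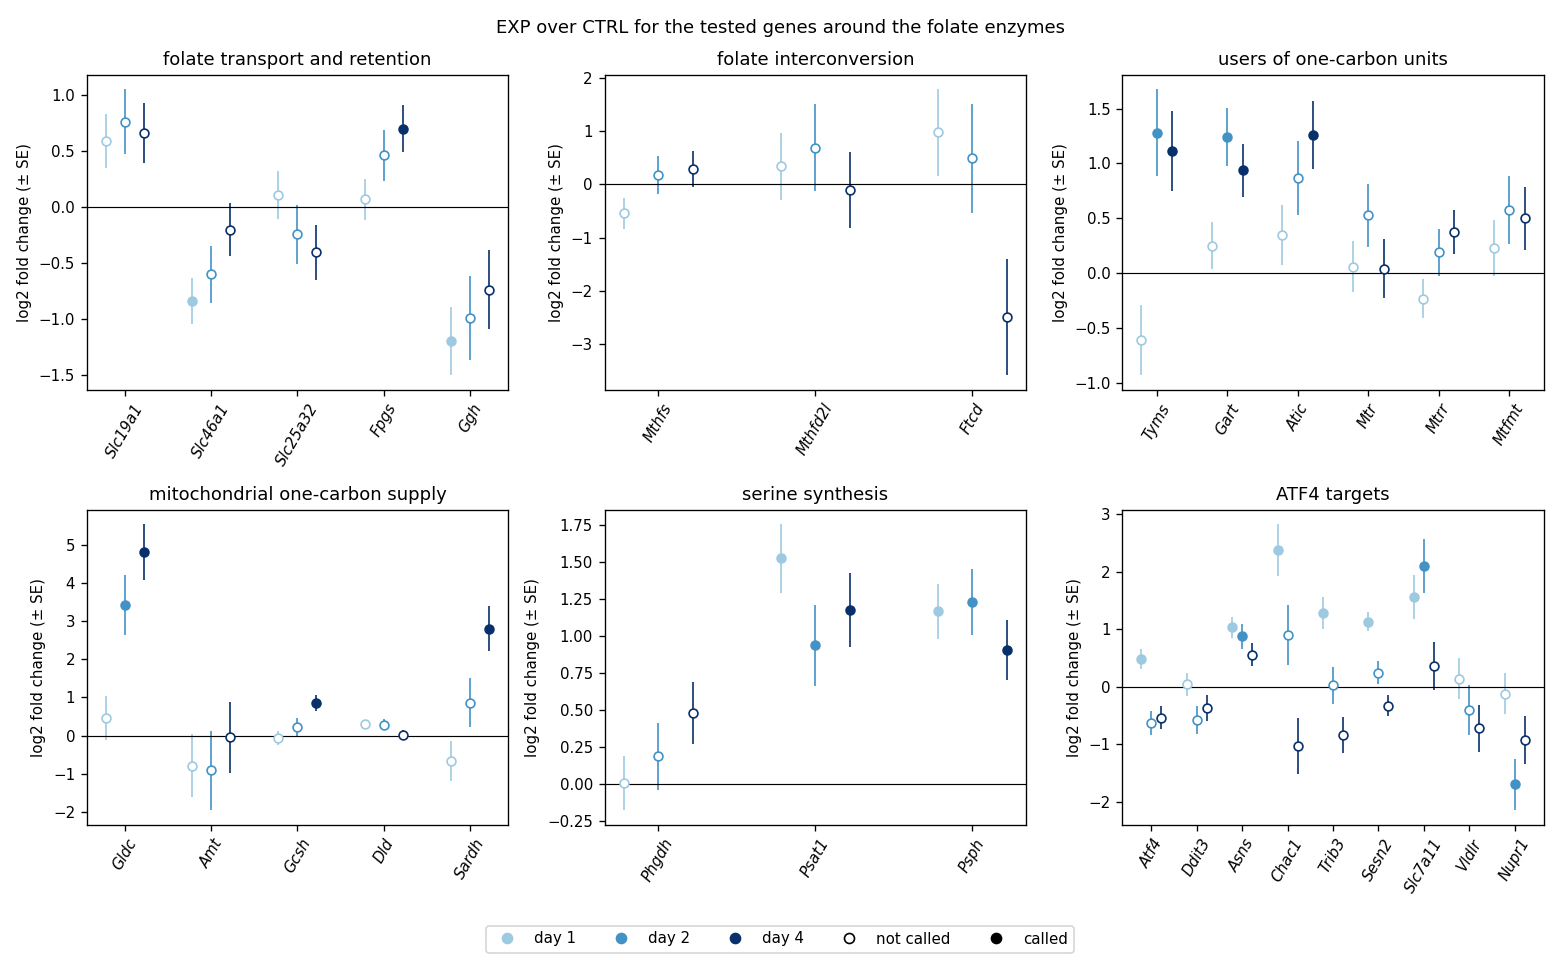
Log2 fold change of EXP over CTRL (points, with bars of 1 SE) for tested genes of 6 lists around the enzymes, in 3 shades for days 1, 2 and 4, with filled points for called genes. Gldc reaches 4.83 on day 4 and Chac1 goes from 2.38 on day 1 to -1.03 on day 4.

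Genes of the cell cycle, in which folate carbon is drawn on for DNA, were set beside the enzymes. Of 9 such genes 1 was higher and 6 lower in EXP on day 1, with Ccnb1 at -4.48, Ccna2 at -4.41 and Cdk1 at -4.25. On day 2 there were 7 higher and on day 4 there were 8, and Mcm5 stood at 3.65 on day 2 and Ccnb1 at 3.91 on day 4. The day 2 count fell to 4 without CTRL replicate 1 and to 3 without CTRL replicate 2, and the day 4 count to 2 without EXP replicate 1. The 5 enzymes called higher on day 1 were Mthfd1, Mthfd1l, Mthfd2, Shmt1 and Shmt2. In the same comparison 6 of the 9 cell cycle genes were called lower, 1 higher and 2 in neither direction. A link between the enzymes and these genes was not tested.

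Aldh1l1 belongs by sequence to the aldehyde dehydrogenases, of which 16 of 17 others were tested. On day 1, 1 was called higher and 6 lower, on day 2 there were 1 and 3, and on day 4 there were 5 and 2. Aldh3a1, an enzyme that clears aldehydes, was lower on each day (-2.23, -3.07 and -2.67), as was the mitochondrial Aldh2 (-0.76, -0.76 and -0.67). On day 2 the Aldh3a1 call was lost in 2 of 6 fits without 1 library and with no filter on low counts, and the Aldh2 call in 3 of 6 and with library totals (-0.30, edgeR adjusted p 0.180). The day 2 count of lower genes fell from 3 to 0 without EXP replicate 1 or 3 and to 1 without CTRL replicate 3. On day 4, leaving out EXP replicate 1 gave 3 higher and 1 lower, EXP replicate 2 gave 1 lower and EXP replicate 3 gave 4 lower. The retinoic acid enzyme Aldh1a3 rose by 2.88 on day 1 and by 5.00 on day 4, the former lost without either of CTRL replicates 1 and 2. Aldh1a2, another retinoic acid enzyme, was called higher on day 4, with EXP libraries from 0.692 to 90.7 CPM and CTRL libraries of at most 0.295 CPM. That call was lost with limma voom (adjusted p 0.0764). Aldh3b1 rose by 3.42 on day 2 and by 2.89 on day 4. None of the 16 was called higher on all 3 days.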

How the data were processed

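Raw counts per gene for the 22 libraries were deposited by the authors in 1 table, with Ensembl identifiers. Per the submitters' processing notes, reads were trimmed with Trimmomatic and the genome build was mm39. The aligner, counting tool, annotation and strandedness are not given in the sources used here, so reads of genes that overlap on opposite strands cannot be told apart. Per the labels' protocols the libraries were ultra-low-input and sequenced on an Illumina platform. GENCODE M21 gave a symbol for 52081 of 55414 identifiers and the exon lengths. It is of another build than mm39, so its coordinates served only for exon lengths and for bases shared between genes. Of the 7 enzymes 5, and of 65 other listed genes 20, share exonic bases with another gene.

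Genes with enough counts by filterByExpr (minimum count 10) were tested with edgeR 4.0.16 in R 4.3.3, with TMM factors from all genes, robust glmQLFit and 1 mean per group of day and arm (16 residual degrees of freedom). Adjusted p-values are over 17554 genes within each contrast. Log2 CPM used a prior count of 2. Alternatives were DESeq2 1.42.0, limma 3.58.1 voom, other scalings, no filter, single days, a replicate block, the library split and leaving out each library, and TMM factors computed after the filter were added after the data were seen.

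Members and lists were chosen with earlier results of these data known, and a few genes of the lists and of the likeness ranking are not reported here. List genes are named by a rule: on each day up to 3 per list with the largest absolute change among those called with at least 1 CPM on average. Likeness is Pearson's r over 22 libraries, with the 5 highest genes for Aldh1l1 considered and 2 for each other enzyme. On simulated counts for day 1 (17162 genes, 195 changed), the edgeR test found 28.9% of the 2-fold and 64.3% of the 4-fold changes, and 6 of its 97 calls were false. The real day 1 comparison called 28.5% of genes, a far larger share than was changed here. The simulated rates may therefore not hold for the real test. Replicate pairs had a chi-square of 29.3 to 451 per degree of freedom, so none was 1 library counted again. Same-numbered libraries of a day deviated together with r of -0.0667 to 0.164, and the numbers were not taken as pairs.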

Additional observations from a re-analysis of the deposited data

Results flagged for a closer look

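For 13 of the 30 list genes named beside the enzymes, the EXP effect differed between the days by edgeR's joint test over days 1, 2 and 4. Genes were named for a large change on some day, which favours such a difference, so this count is a description and is not set against all genes. Cell cycle genes had log2 fold changes below 0 on day 1 and above 0 on days 2 and 4 (Mcm5 was not called on day 1, nor Top2a on day 2), with an adjusted p for the difference between days of 1.83e-04 for Ccna2, 3.22e-04 for Cdk1, 4.07e-04 for Rrm2, 4.42e-04 for Ccnb1, 0.00119 for Mcm5 and 0.00172 for Top2a. In the folate lists the adjusted p was 0.0109 for Gldc, 0.0233 for Sardh and 0.0253 for Tyms. Among ATF4 targets it was 0.00882 for Trib3 and 0.0108 for Chac1, and among aldehyde dehydrogenases 0.00493 for Aldh3b1 and 0.0165 for Aldh4a1. No library stood apart from its group for any of the 7 enzymes in the 21 sets looked at (each of the 7 enzymes in each of the 3 groups of 4 or 5 libraries), where chance alone gives 1.05.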

How the results depend on the processing

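Aldh1l1 kept its direction on each day under all alternatives, with log2 fold changes of 2.83 to 3.01, 5.51 to 6.39 and 3.77 to 4.35 on days 1, 2 and 4 when 1 library was left out. It was chosen for its difference between the arms in these same libraries. A kept direction follows in large part from that choice and is a description only. With 1 library left out, 4 to 6 of the other 6 enzymes were called on day 1, 2 to 3 on day 2 and 1 to 3 on day 4 (1 without EXP replicate 1 of day 4), 0 to 1 for the effect between days, 0 over days in CTRL and 1 in EXP. Library totals without TMM moved the median of all genes from 0.01, 0.03 and 0.06 to 0.21, 0.49 and 0.36 on days 1, 2 and 4. The share of calls that are higher went from 47.8%, 58.3% and 60.3% to 66.2%, 90.5% and 80.8%. Under that scaling 5 enzymes were called on day 2 and 4 on day 4, with Mthfd2 (0.60) and Shmt2 (0.82) added on day 2 and Shmt1 (1.28) and Shmt2 (0.58) on day 4, and Aldh1l2 on day 4 turned to 0.11. Mthfd2 on day 2, near 0, ran from -0.0213 (without CTRL replicate 2) to 0.219 when 1 library was left out and was also below 0, at -0.00368, without EXP replicate 1. Libraries of day 4 alone gave 1 call, the high-side libraries of day 1 gave 3 and the low-side libraries of day 4 gave 0, settings with fewer libraries. The effect between days gave 1 call, Mthfd2, with DESeq2 size factors, library totals, limma voom and TMM factors after the filter, and voom gave 1 over days in CTRL. DESeq2 was run for the 3 comparisons of arms alone. Shmt2 on day 1 was lost with no filter (adjusted p 0.160), with day 1 alone (0.0719) and with a term for the library split (0.0622). With the replicate number as a block, edgeR called 4, 3 and 2 of the 6 on days 1, 2 and 4, with Shmt1 (0.0552) and Shmt2 (0.0717) lost on day 1, and the numbers rest on the labels alone. Over all genes the block brought the effect between days from 1517 to 392 calls, the change in EXP from 2478 to 1376 and that in CTRL from 53 to 0. Other counts over all genes moved by more than 1.5 times: voom gave 4544 on day 2 (main 2365), 2297 between days and 564 in CTRL, library totals gave 4632 on day 2 and 163 in CTRL, day 4 alone gave 1101 (main 3962), the split gave 22 in CTRL, and the high-side and low-side libraries gave 2221 (main 5003) and 1. With 1 library left out, the calls over all genes ran from 4020 to 4790 on day 1, from 895 (without EXP replicate 1) to 2152 on day 2 and from 1630 (without EXP replicate 1) to 5011 on day 4. Moves of over 1.5 times came without any day 2 library but EXP replicate 2, and without EXP replicates 1 and 2 of day 4. The calls ran from 893 to 2552 between days, from 5 to 84 in CTRL and from 1297 to 3342 in EXP, and the shares of all genes printed beside the enzymes move with them. The cause of these shifts was not tested. Depth limits the Aldh1l1 level in CTRL of day 2, which rests on 6 to 18 counts.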
